A study of Rattus norvegicus with 2 samples.

Results

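Long lncRNAs are here the transcripts of the deposited lncRNA list whose recorded length was 1000 nt or more, and the rule used length alone, not expression. It took 701 of the 4052 lncRNAs, from 572 of 3543 loci, and set them apart from 1047 mid-length lncRNAs (over 400 and under 1000 nt) and 2304 short lncRNAs (200 to 400 nt). The hypothalamus of female Sprague Dawley rats was sequenced before puberty (postnatal day 25) and at puberty (postnatal day 35), with 3 hypothalami in each stage, and the labels give no treatment and no genetic change. The files give 1 value per transcript and stage, so there were 2 libraries in all, and the spread between animals could not be measured. No difference between stages was therefore tested, and age and puberty cannot be told apart. Intervals of fragments cover counting error only. Intervals of shares and medians treat transcripts as independent draws, though some share a locus. None of them covers the spread between animals.

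A long noncoding RNA is a transcript with no recognised protein product, usually spliced, capped and often polyadenylated like an mRNA. Some act at their own locus on neighbouring genes, some carry microRNAs (miRNAs) inside their primary transcript, and some share a promoter region with a protein-coding gene on the opposite strand. The hypothalamus controls the start of puberty through the neurons that release gonadotropin-releasing hormone. The unit used throughout is FPKM, the number of sequenced fragments scaled to the length of the transcript and to the size of the library.

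All 14 markers of hypothalamic neurons looked up, among them Oxt, Avp, Pomc and Gnrh1, were above 0 FPKM in both libraries, and their sum was 2700 FPKM before puberty and 4103 at puberty. The highest at both stages was Pmch, with 1675 and 2723 FPKM, and Oxt followed with 411.3 and 685.5. The markers went both ways: Avp (253.8 and 239.8), Gnrh1 (8.5 and 6.3), Nkx2-1 and Otp were lower at puberty and the others higher. Of 6 pituitary markers, 2 were at 0 in 1 library, and the 6 together summed to 31.6 FPKM before puberty and 44.4 FPKM at puberty. The 3 blood markers Hba1, Hbb and Alas2 summed to 5244 and 10737 FPKM, the 4 cortical markers to 6.01 and 3.28, the 4 thalamic markers to 172 and 136, and the 4 choroid plexus markers to 33.7 and 28.8. These tissue differences move with the stage, and their part in the values below was not tested. In whole tissue, fewer cells of a type and less RNA per cell cannot be told apart. Steps in the FPKM of genes with 1 transcript corresponded to about 20770000 fragments before puberty and 16210000 at puberty. At those depths 1 fragment was worth 0.0648 and 0.0824 FPKM for a transcript of 1000 nt. The steps corresponded to lengths shortened by 258 and 252 nt, about the whole length of a short lncRNA (median 269 nt), so values of the shorter classes stand beside those of the long lncRNAs for reference and are not levels on an equal footing.

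The sequences shown first are mature miRNAs whose whole hairpin lay inside a long lncRNA, because they tie an unnamed assembled transcript to a known RNA. Of 419 rat miRNA hairpins in RefSeq (build GRCr8), 15 were found letter for letter in 6 long lncRNAs of 4 loci, 13 on the strand of the lncRNA and 2 on the opposite strand. None was found in a mid-length or a short lncRNA, classes that held 638089 and 637703 nt of sequence against 1752283 nt for the long lncRNAs. A mature miRNA is cut from its hairpin and pairs with target mRNAs through its seed, the bases 2 to 8, in capitals here. For each hairpin on the lncRNA's strand, 1 mature product is printed.
rno-miR-379-5p: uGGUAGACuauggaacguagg
rno-miR-411-5p: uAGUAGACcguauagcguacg
rno-miR-299a-5p: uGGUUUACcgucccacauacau
rno-miR-380-3p: uAUGUAGUaugguccacaucu
rno-miR-323-3p: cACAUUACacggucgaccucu
rno-miR-758-3p: uUUGUGACcugguccacuaacc
rno-miR-329-3p: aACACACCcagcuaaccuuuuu
rno-miR-495: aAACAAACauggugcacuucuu
rno-miR-667-3p: uGACACCUgccacccagcccaa
rno-miR-101a-3p: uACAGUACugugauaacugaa
rno-miR-7b: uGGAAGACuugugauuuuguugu
rno-miR-421-3p: aUCAACAGacauuaauuggg
rno-miR-374-5p: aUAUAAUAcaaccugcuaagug

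The first 9 came from a single transcript, TCONS_00438597 of XLOC_376361, which is 11098 nt long. Its hairpins followed each other in the order Mir379, Mir411, Mir299, Mir380, Mir323, Mir758, Mir329, Mir495 and Mir667, from base 1146 to base 9989 of the transcript. In GRCr8 they lie on the plus strand of chromosome 6, from Mir379 at chr6:134543445-134543529 to Mir667 at chr6:134555337-134555428. This miRNA cluster belongs to the imprinted Dlk1-Dio3 domain, in which the noncoding RNAs are made from the maternal chromosome. Mir299b and Mir3579 lay in the same transcript on the opposite strand, over Mir299 and Mir380. TCONS_00438597 stood at 1.45 FPKM before puberty and 3.05 at puberty. Its locus held 2 other assembled transcripts that are in neither expression list, and the 3 together summed to 8.0 and 11.4 FPKM. The miRNAs themselves were not measured.

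The other host loci had 1 or a pair of hairpins each. XLOC_475677, on the X chromosome, carried Mir374b and Mir421 close together in both of its long lncRNAs: TCONS_00535348 of 22571 nt stood at 0.805 FPKM before puberty and 0.702 at puberty, and TCONS_00535347 of 14524 nt at 0.537 and 0.941. XLOC_358069 carried Mir101a near the start of 2 transcripts, at bases 284 to 358 of TCONS_00402520 and bases 185 to 259 of TCONS_00411205. TCONS_00402520 was at 3.05 and 3.27 FPKM, while TCONS_00411205 was at 0.000284 FPKM before puberty and 0.974 FPKM at puberty. TCONS_00508112 of XLOC_450987 carried the hairpin that RefSeq lists as Mir9, whose mature product in the same table is rno-miR-7b, and stood at 1.81 and 1.23 FPKM. None of the 6 host transcripts differed by 2-fold on the FPKM + 1 scale.

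**Figure D1:**
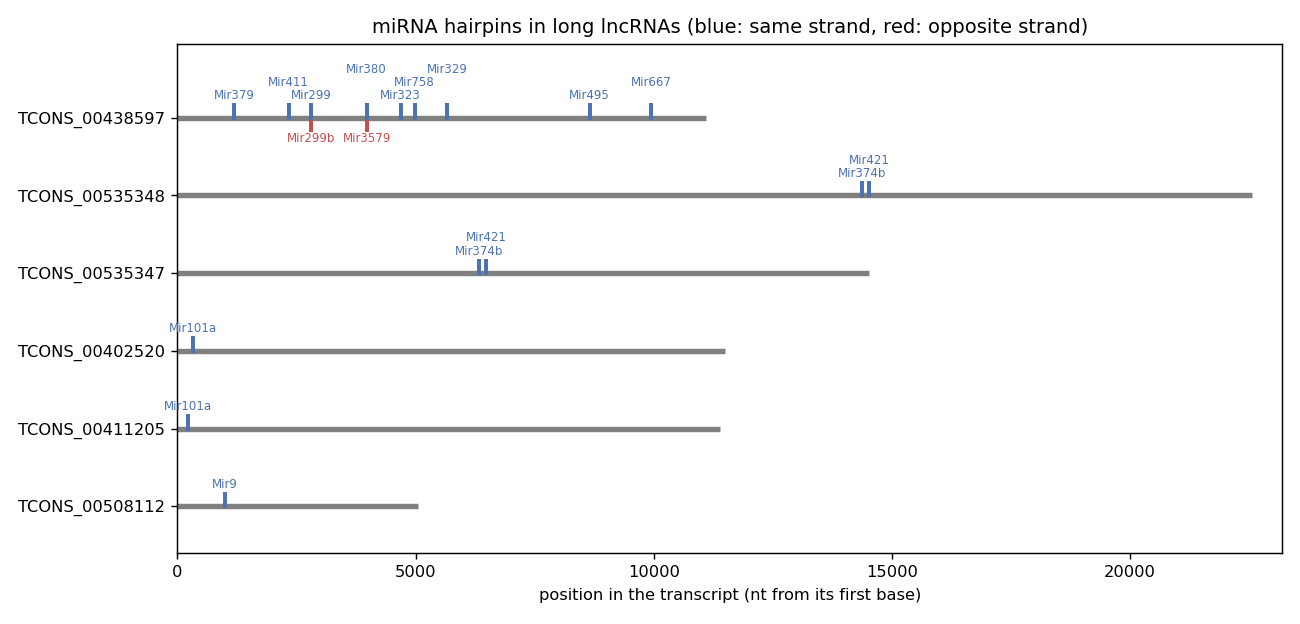
Position of each miRNA hairpin along the 6 long lncRNAs that hold one, in nt from the first base of the transcript; blue ticks are on the strand of the lncRNA, red ticks on the opposite strand. TCONS_00438597 holds 11 hairpins, and the others hold 1 or 2.

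All of the 24 mature miRNAs of these 13 hairpins had different seeds. The seeds of rno-miR-379-5p and rno-miR-411-5p, neighbours in TCONS_00438597, differed at 1 base, as did those of rno-miR-379-5p and rno-miR-7b, which come from different chromosomes. The same held for rno-miR-101a-3p and rno-miR-323-3p, also from different chromosomes. It held as well for rno-miR-758-5p against rno-miR-379-5p and against rno-miR-299a-5p.

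Long lncRNAs were mostly low but were measured at both stages. Of the 701, 669 were above 0 FPKM in both libraries (95.4%, 95% Wilson interval 93.6 to 96.7), 16 were at 0 in the pubertal library alone and 16 at 0 in the prepubertal library alone. Some values above 0 were far below 1 fragment, such as 0.000284 FPKM for TCONS_00411205, and with 0.1 FPKM required in both libraries the share was 92.9%. Over all 30376 transcripts of the lncRNA and mRNA lists, 10.7% were at 0 in the pubertal library alone and 3.06% in the prepubertal library alone, against 2.28% each way for the long lncRNAs, and over all lncRNAs the shares were 54.6% and 0.79%. Among mid-length lncRNAs 72.4% were above 0 in both (69.6 to 75), and among short lncRNAs 16.4% (15 to 18). The pubertal library had the fewer fragments, and the part of depth in this order was not tested. The lowest long lncRNA reached 0.490 FPKM in its higher library and the next 0.507, while the lowest mid-length lncRNA reached 0.365 FPKM and the lowest short one was listed at 0 in both. The next lowest mid-length and short ones reached 0.478 and 0.486 FPKM, whereas mRNAs went down to 0. Nearly all of the lncRNA list thus lay above a floor near these values. A member at or near 0 at 1 stage is therefore in the list through its other stage. This bears on the counts at 0 and of 2-fold differences, and the mRNAs in the background have no such floor.

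The median level was 0.951 FPKM before puberty (95% order-statistic interval 0.908 to 1.01) and 1.02 FPKM at puberty (0.955 to 1.09). These intervals overlapped. The middle 50% of the members lay between 0.659 and 1.67 FPKM before puberty and between 0.635 and 1.85 at puberty, and 28 and 25 members reached 10 FPKM. The summed FPKM of the long lncRNAs was 1997 and 2061. Across the 701 members the levels in the 2 libraries had a Spearman rho of 0.631 and a Pearson r of 0.882 on the log10(FPKM + 1) scale, a description over transcripts that share 2 libraries.

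The 10 highest transcripts held 40.5% of the summed FPKM before puberty and 41.8% at puberty, and 8 of the 10 were shared by both libraries. The highest was TCONS_00059789 of XLOC_044890 (1407 nt), with 280 FPKM before puberty and 306 at puberty. Next came a pair of transcripts of XLOC_044889, TCONS_00047388 with 149 and 166 FPKM and TCONS_00059788 with 96.1 and 102 FPKM. Bases 616 to 1407 of TCONS_00059789 matched the first 792 bases of TCONS_00047388 at 99.6% identity. Reads from that stretch could come from either locus, so the division of FPKM between XLOC_044889 and XLOC_044890 is uncertain. The longest ATG-to-stop frame was in this shared stretch and had 213 nt in each. It is printed from the ATG to the stop codon for both loci, with the bases that differ in capitals, to show how alike the copies are.
TCONS_00059789: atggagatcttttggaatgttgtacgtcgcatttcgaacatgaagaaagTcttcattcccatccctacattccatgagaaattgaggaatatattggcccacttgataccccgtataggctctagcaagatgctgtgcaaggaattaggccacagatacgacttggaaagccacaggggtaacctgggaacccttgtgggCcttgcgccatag
TCONS_00047388: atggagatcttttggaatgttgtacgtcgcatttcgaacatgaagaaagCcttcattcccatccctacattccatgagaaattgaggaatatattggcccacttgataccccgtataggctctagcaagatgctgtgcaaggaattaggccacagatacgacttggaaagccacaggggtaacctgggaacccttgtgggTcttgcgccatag

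The 2 frames were the same at 211 of 213 bases, and the frame of TCONS_00059788 was identical to that of TCONS_00047388. A second group of copies was XLOC_042644 and XLOC_035425, which shared 731 aligned bases at 97.1% identity. TCONS_00045011 of XLOC_042644 stood at 70.3 and 65.4 FPKM, TCONS_00059593 and TCONS_00059592 of the same locus at 24.3 and 23.6 and at 17.8 and 16.2, and TCONS_00058935 of XLOC_035425 at 25 and 23.3. These 7 transcripts of 4 loci were the only members that shared at least 300 nt at 95% identity, with under 50% of them in lower case (repeats), with a member of another locus.

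The other members among the 10 highest of a library had no such copy. TCONS_00072281 (XLOC_064245) stood at 65.8 and 56.2 FPKM, TCONS_00287234 (XLOC_256494) stood at 42.4 and 44.2, TCONS_00105163 (XLOC_083475) at 31.4 and 30.1, and TCONS_00438587 (XLOC_376351) at 24.9 and 27.8. TCONS_00123259 (XLOC_107041) was at 19.9 and 23.8 FPKM. The largest ratio between libraries in this abundant set was in TCONS_00428681 of XLOC_380730, a transcript of 1145 nt with 22.4 FPKM before puberty and 40.4 FPKM at puberty. It was the only transcript of its locus, and the values correspond to 413 fragments (exact Poisson interval 374 to 455) and 586 fragments (539 to 635).

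**Figure D2:**
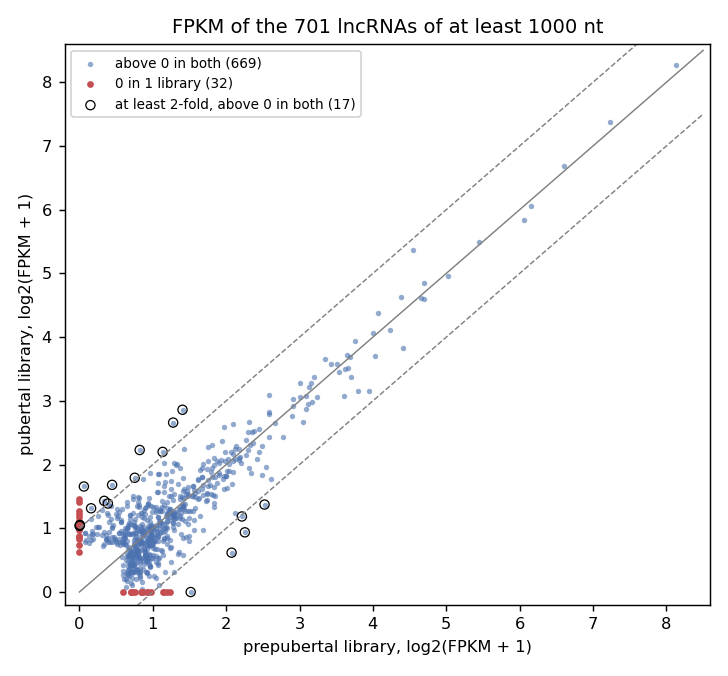
FPKM of the 701 long lncRNAs in the prepubertal (x) and pubertal (y) library, both as log2(FPKM + 1); the solid line marks equality and the dashed lines 2-fold. Most points lie between the dashed lines; 32 members are at 0 in 1 library (red) and 17 others are outside the lines (circled).

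Log2 ratios were taken as log2((pubertal FPKM + 1)/(prepubertal FPKM + 1)), a scale that understates differences between low values. The median of the long lncRNAs was -0.04 (interval -0.07 to -0.01), against -0.38 for mid-length and -1.65 for short lncRNAs. It was 0.0402 among the members that reached 1 FPKM in 1 library, and -0.02 among 13919 mRNAs of at least 1000 nt that reached 0.5 FPKM in 1 library. Both limits keep a transcript through its higher library and can themselves move the median. Of the members, 330 reached 1 FPKM before puberty and 363 at puberty. These mRNAs share the length limit with the members but not the level, with medians of 10.3 and 9.98 FPKM, and ratios on this scale depend on level. Pubertal FPKM was the higher in 314 of 701 members (44.8%, 41.2 to 48.5), in 29.2% of the mid-length, 6.03% of the short and 18.7% of all lncRNAs, and in 46.6% of these mRNAs. On this scale 22 long lncRNAs (3.14%) were at least 2-fold higher at puberty and 9 (1.28%) at least 2-fold lower. The background over all 30376 transcripts was 0.813% higher and 6.66% lower, and over all lncRNAs 2.27% higher and 45.6% lower. Among the 13919 mRNAs of at least 1000 nt that reached 0.5 FPKM in 1 library, 0.474% were 2-fold higher and 0.575% lower. The other 670 long lncRNAs lay within 2-fold. The counts depend on the pseudocount: with 0.1 FPKM in place of 1, 90 members (12.8%) were higher and 91 (13.0%) lower, against 3.72% and 11.9% of all transcripts. The shares of the length classes and of all transcripts stand beside those of the members for reference, since 1 fragment is worth more FPKM in a shorter transcript, and none of these differences was tested.

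At the edge of the rule there was no step in level. The 83 members of 1000 to 1099 nt had medians of 0.791 FPKM before puberty and 0.940 at puberty, with 94.0% above 0 in both libraries. The 81 lncRNAs from 900 nt up to the limit, just outside, had 0.881 and 1.06 FPKM with 88.9% above 0 in both.

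Most large differences were in loci with several transcripts. Of the 701 members, 369 were the only assembled transcript of their locus and 332 had others beside them. In the first set 4 were at 0 in 1 library (1.08%) and 3 differed by 2-fold on the FPKM + 1 scale (0.813%), and in the second set 28 were at 0 (8.43%) and 28 differed by 2-fold (8.43%). FPKM of transcripts that overlap are estimated jointly, and an exact 0 can be the outcome of that division. For all 28 members at 0 that had other transcripts beside them, the sum over the locus was above 0 in both libraries, and for 24 of the 28 it differed by less than 2-fold.

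Of the 22 members that were 2-fold higher, 19 had other transcripts in the locus, and the sum over the locus was 2-fold higher for 2 of these and within 2-fold for 17. Of the 9 that were 2-fold lower, all had other transcripts, and the sum was 2-fold lower for 2, within 2-fold for 5, and 2-fold higher for the rest. Adding other transcripts draws a ratio towards 1, so the same 28 members were also compared in plain FPKM. The locus sum differed in the opposite direction to the member in 5, in the same direction by less FPKM in 13, and in the same direction by at least as much FPKM in 10.

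XLOC_463931 was an exchange of this kind. TCONS_00523094 was at 0.966 FPKM before puberty and listed at 0 at puberty, TCONS_00540272 was listed at 0 before puberty and at 1.27 FPKM at puberty, and TCONS_00540271 was at 1.10 and 0.824. The locus summed to 2.07 and 2.1 FPKM. A member at 0 in each library was found in 6 loci, the others being XLOC_139138, XLOC_154105, XLOC_275150, XLOC_397459 and XLOC_422781. XLOC_422781 exchanged TCONS_00476586 (0.785 and 0 FPKM) for TCONS_00476587 (0 and 1.67), and XLOC_139138 exchanged TCONS_00158713 (0.697 and 0) for TCONS_00176463 (0 and 1.34). In XLOC_397459, TCONS_00447835 was at 1.21 and 0 FPKM and TCONS_00466874 at 0 and 1.74, while a lncRNA of 711 nt in the same locus, TCONS_00466875, was at 1.48 and 8.48. The flat sum of XLOC_463931 was not the rule among these loci. The sum of XLOC_154105 was also close at both stages, with 1.81 and 1.88 FPKM, but those of XLOC_139138 (0.697 and 1.34), XLOC_422781 (0.785 and 1.67), XLOC_275150 (3.27 and 6.21) and XLOC_397459 (4.13 and 11.6) were higher at puberty.

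XLOC_414038, 1 of the 4 rat loci that the study singled out with a target gene, had 2 transcripts, both members. TCONS_00465242 (2365 nt) was at 1.2 FPKM before puberty and listed at 0 at puberty, and TCONS_00465243 (2588 nt) was at 2.39 and 3.83 FPKM. Their sum was 3.58 and 3.83 FPKM. The transcripts were identical in their first 709 and last 1656 bases and differed by a stretch of 223 nt that only the longer one holds, at its bases 710 to 932. That stretch is printed in capitals with 20 nt on each side, followed by the joined bases of the shorter transcript, since it alone separates a transcript present at both stages from one listed at 0.
TCONS_00465243: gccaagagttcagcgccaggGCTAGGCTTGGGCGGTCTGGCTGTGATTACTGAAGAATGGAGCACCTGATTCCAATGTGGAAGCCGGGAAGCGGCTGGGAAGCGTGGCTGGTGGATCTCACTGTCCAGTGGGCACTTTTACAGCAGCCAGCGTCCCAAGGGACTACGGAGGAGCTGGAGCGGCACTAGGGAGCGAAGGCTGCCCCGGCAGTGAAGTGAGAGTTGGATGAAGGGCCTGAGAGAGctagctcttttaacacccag
TCONS_00465242: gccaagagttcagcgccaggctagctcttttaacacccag

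XLOC_446331, whose target in the study was Igfbp5, a binding protein of insulin-like growth factors, had 1 transcript, TCONS_00503192 of 1720 nt. It stood at 0.526 FPKM before puberty and 0.798 FPKM at puberty, which correspond to 16 fragments (9.15 to 26) and 19 fragments (11.4 to 29.7). These counting intervals overlap. By quantitative PCR, a different measure, the study reported a significant rise of XLOC_446331 and Igfbp5 in pubertal rats. It also reported that siRNA against XLOC_446331 lowered Igfbp5 and Igf-1 in cultured hypothalamic cells. The study's other named loci, XLOC_181783 and XLOC_113511, had no transcript of 1000 nt or more.

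The 3 loci with the most members had 5 each. In XLOC_405555, TCONS_00467676 (1166 nt) was at 1.65 FPKM before puberty and 6.26 at puberty, while its 4 companions all had lower values at puberty, among them TCONS_00467678 with 4.83 and 2.90. The locus summed to 14.9 and 15.4 FPKM. In XLOC_466772, TCONS_00526008 (1880 nt) was at 3.21 and 0.534 FPKM and TCONS_00526009 at 2.95 and 3.58, and the locus summed to 13.9 and 11.2. In XLOC_460754 the 5 members ranged from 0.608 to 1.91 FPKM before puberty and from 0.544 to 2.31 at puberty, with sums of 6.17 and 6.49.

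In a few loci the sum differed as well. XLOC_031006 had 2 members and no other transcript, and both were lower at puberty: TCONS_00032588 stood at 3.77 and 0.915 FPKM and TCONS_00032609 at 3.64 and 1.27, so that the locus summed to 7.41 and 2.19 FPKM. Of the 572 loci, with every assembled transcript included, 9 had a sum at least 2-fold higher at puberty on the FPKM + 1 scale (1.57%) and 10 at least 2-fold lower (1.75%). Over all 27619 loci of the comparison table the shares were 0.456% and 7.37%. With the long lncRNAs of a locus summed alone the counts were 10 and 2, and in 9 of the 10 lower loci the members' own sum was within 2-fold, as in XLOC_036556, where the locus summed to 8.65 and 1.16 FPKM and the member to 1.12 and 1.16. Among the higher loci, the members' own sum was also 2-fold higher in XLOC_394453, XLOC_335587, XLOC_446380, XLOC_339376 and XLOC_023483. It was within 2-fold in XLOC_397459, XLOC_112308, XLOC_337751 and XLOC_263853. In XLOC_263853, the extreme case of the higher loci, the member TCONS_00297497 went from 1.29 to 0 FPKM and TCONS_00297498 from 1.38 to 2.33. A lncRNA of 269 nt in that locus, TCONS_00305356, was at 2.41 and 26.1 FPKM.

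**Figure D3:**
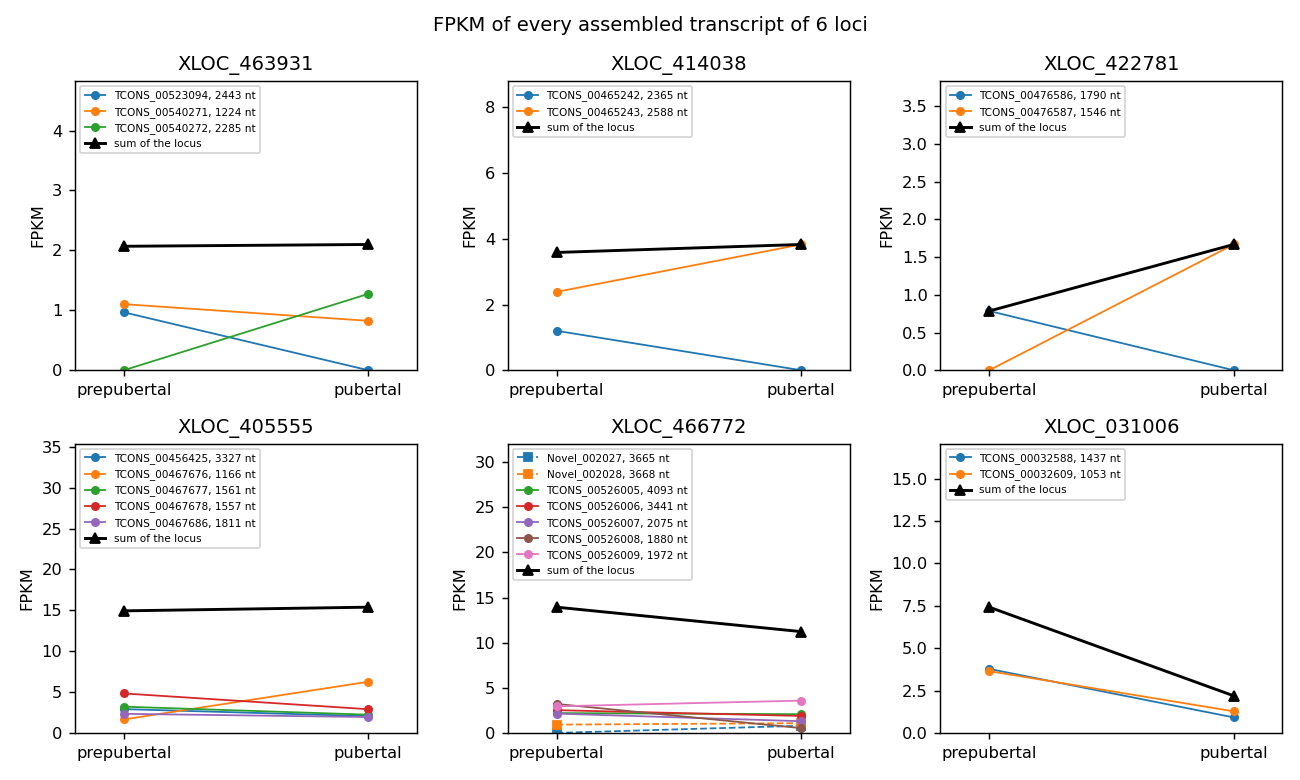
FPKM of every assembled transcript (coloured points; squares are transcripts that are not members) and their sum (black triangles) in the prepubertal and pubertal library for 6 loci. In XLOC_463931, XLOC_414038 and XLOC_405555 single transcripts cross or move apart while the sum differs by less than 0.5 FPKM; in XLOC_031006 both transcripts are lower at puberty.

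The other members that led the list of higher values had other transcripts in their loci. TCONS_00292636 (XLOC_240462) was at 0.768 and 3.69 FPKM in a locus of 5.11 and 8.08, TCONS_00056766 (XLOC_012388) at 1.42 and 5.32 in a locus of 5.08 and 10.9, and TCONS_00343376 (XLOC_300962) at 0.362 and 2.21 in a locus of 3.66 and 6.21. At the other end, TCONS_00359800 (XLOC_319733) was at 1.86 and 3.67e-05 FPKM in a locus of 3.0 and 1.93, TCONS_00472690 (XLOC_419084) at 1.35 and 0 in a locus of 6.33 and 6.12, and TCONS_00359716 (XLOC_319660) at 4.75 and 1.59 in a locus of 14.8 and 13.6. In plain FPKM, the sums of XLOC_240462, XLOC_012388 and XLOC_300962 differed by at least as much as the member, and those of XLOC_319733, XLOC_419084 and XLOC_319660 by less.

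For the 369 members alone in their locus, FPKM could be turned back into whole fragments. Between 1 and 50 fragments, 95.9% of their prepubertal and 97.3% of their pubertal values lay within 0.05 of a whole number. The median was 31 fragments before puberty and 22 at puberty, and 30 and 68 members had under 10, so that most single values of this group carry wide counting intervals. The FPKM intervals of the 2 libraries did not overlap for 45 members, of which 23 (6.23%) were higher at puberty and 22 (5.96%) lower. Among all 14266 single-transcript lncRNAs and mRNAs of at least 1000 nt, the same rule called 9.06% higher and 13.4% lower. Intervals separate more readily with more fragments, and the 18338 mRNAs of at least 1000 nt had medians of 5.32 and 5.09 FPKM. These shares are therefore for reference only, and the part of level was not tested. Each pair of intervals was read alone, with no allowance for the 369 members looked at. Members near 0 in 1 library entered the list through the other. Among the 45, TCONS_00059789 shares sequence with XLOC_044889, so its fragments are uncertain. The intervals say nothing of the spread between rats.

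The 3 members of this group that were 2-fold higher at puberty on the FPKM + 1 scale rested on few fragments. TCONS_00057748 (XLOC_023483, 1369 nt) had 1 fragment (0.0253 to 5.57) before puberty and 39 (27.7 to 53.3) at puberty, or 0.0433 and 2.15 FPKM. TCONS_00409621 (XLOC_339376, 1118 nt) had 0 and 20 fragments (12.2 to 30.9), and TCONS_00409447 (XLOC_335587, 1081 nt) had 2 and 20. No single-transcript member was 2-fold lower on the FPKM + 1 scale. The nearest were TCONS_00268054 (XLOC_238023), with 46 fragments (33.7 to 61.4) and 1.44 FPKM before puberty against 6 fragments (2.2 to 13.1) and 0.240 FPKM at puberty, and TCONS_00363375 (XLOC_323051), with 19 and 1 fragments. TCONS_00421967, TCONS_00187279 and TCONS_00325723 had 16, 12 and 11 fragments before puberty and 0 at puberty.

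**Figure D4:**
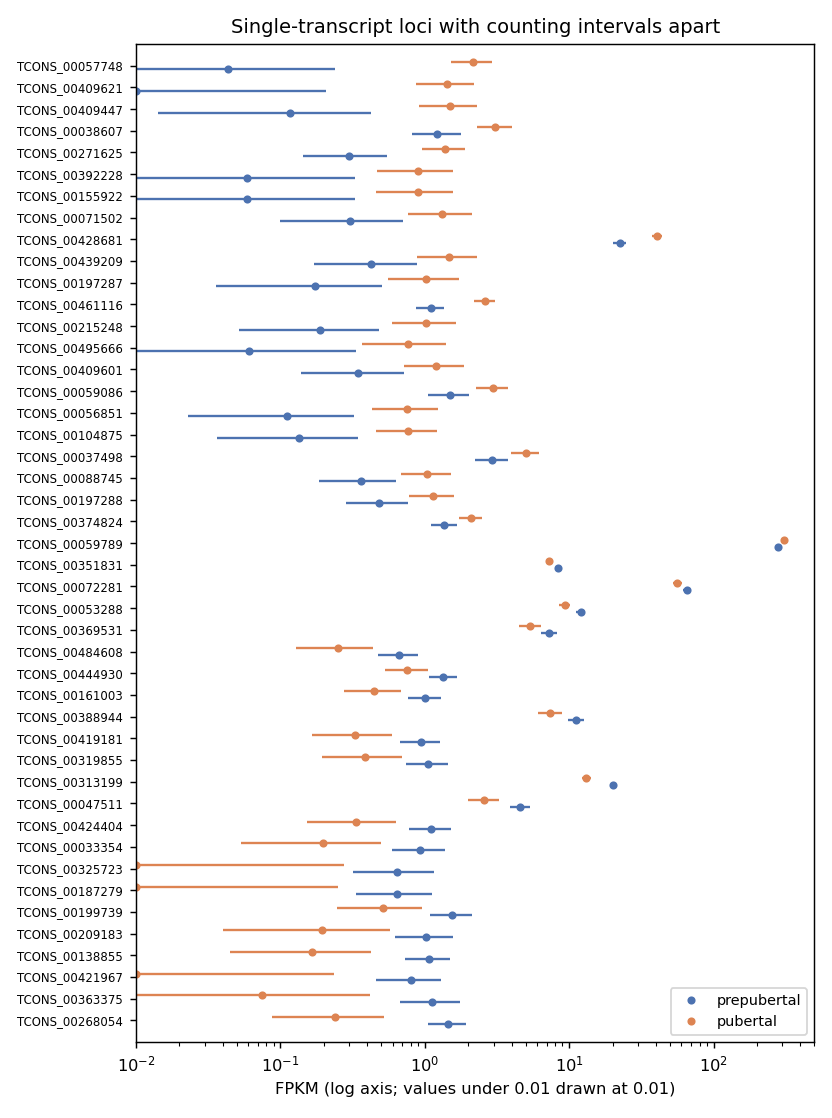
FPKM (log axis) of the 45 single-transcript long lncRNAs whose 95% counting intervals (lines) in the prepubertal (blue) and pubertal (orange) library do not overlap. The 23 at the top were higher and the 22 at the bottom lower at puberty; only 6 of the 45 reached 10 FPKM in a library.

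The long lncRNAs were matched to promoters by sequence, because the genome build of the files was not used here. RefSeq windows of 250 nt before to 50 nt after a gene start (GRCr8) were searched for at least 100 nt at 99% identity, with under 50% of them in lower case. Such a match was found for 81 of 701 long lncRNAs (11.6%, 9.39 to 14.1), for 6.02% of the mid-length and for 2.04% of the short lncRNAs. Of the long lncRNAs, 40 matched the window of an annotated lncRNA on the same strand, and 37 that of a protein-coding gene on the opposite strand. A match is a description of shared sequence, and longer transcripts have more chances of one.

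In 20 transcripts of 18 loci the lncRNA began inside the window and ran away from a protein-coding gene, head to head with it. The starts of lncRNA and gene were 41 to 147 nt apart, with a median of 92 nt. The gene's FPKM was also in the files for 16 pairs (Acad9 is in 2 of them), with medians of 11 FPKM before puberty and 10.5 at puberty against 0.980 and 1.09 over the 20 lncRNAs. On the FPKM + 1 scale none of these lncRNAs or genes differed by 2-fold, and lncRNA and gene moved in the same direction in 9 of 16 pairs. The highest of these lncRNAs at puberty was TCONS_00357469 (XLOC_317472, 3888 nt), opposite Fkbp4, which encodes a co-chaperone of steroid hormone receptors. It stood at 1.26 FPKM before puberty and 2.59 FPKM at puberty, and Fkbp4 at 121 and 137 FPKM. Neil1, a DNA glycosylase of base excision repair, was at 5.82 and 6.60 FPKM and its partner TCONS_00494805 at 0.667 and 1.76. Acad9, a mitochondrial complex I assembly factor, was at 36.1 and 34.4 FPKM, with TCONS_00278997 at 1.23 and 1.10 and TCONS_00293091 at 0.665 and 1.36. The window of Fkbp4, chr4:163397869-163398168 on the minus strand in GRCr8, is printed in the direction of the gene. The capitals are the first 135 nt, which the lncRNA holds on the opposite strand, and the gene starts 116 nt after their end.
Fkbp4 window: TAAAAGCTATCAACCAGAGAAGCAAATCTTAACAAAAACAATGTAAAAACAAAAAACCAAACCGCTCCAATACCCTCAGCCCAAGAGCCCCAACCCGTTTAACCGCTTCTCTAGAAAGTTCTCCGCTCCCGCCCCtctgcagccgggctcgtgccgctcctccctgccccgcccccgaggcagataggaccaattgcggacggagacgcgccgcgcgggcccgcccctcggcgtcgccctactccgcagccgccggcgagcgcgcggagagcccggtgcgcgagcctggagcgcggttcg

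The whole window had a GC content of 63.3% and an observed-to-expected CpG ratio of 1.18. These values describe the window of the gene and not the capitals alone, which the lncRNA holds. Over whole long lncRNAs the median ratio was 0.273, which is not a like measure.

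Another 13 long lncRNAs of 10 loci ran over the start of a protein-coding gene on the opposite strand. TCONS_00088745 (XLOC_070292) lay over the start of Hes7, a transcriptional repressor of the segmentation clock, and was at 0.361 and 1.04 FPKM, while Hes7 was at 1.26 and 1.23. TCONS_00342343 (XLOC_289122), over Dab2ip, a Ras GTPase-activating protein, was at 7.07 and 8.75 FPKM, while Dab2ip was at 12.0 and 8.41. TCONS_00296369, over Fam13c, was at 1.06 and 1.45, while Fam13c was at 17.5 and 11.1. These 3 pairs were the ones that went in opposite directions. In the other 6 of the 9 pairs with a value for the gene, lncRNA and gene went the same way, among them TCONS_00324942, also over Dab2ip, with 2.38 and 2.17 FPKM. Lastly, 8 long lncRNAs held the start of a protein-coding gene on the same strand, so that reads of the gene and the lncRNA could not be told apart there. TCONS_00313199 (XLOC_278058, 4077 nt), which holds the start of Slc1a2, the main glutamate transporter of astrocytes, was at 20.3 FPKM before puberty and 13.1 at puberty. Slc1a2 was at 374 and 258 FPKM, and so both were lower at puberty. TCONS_00089760 held the start of Robo1, an axon guidance receptor, at 1.72 and 1.61 FPKM against 13.9 and 12.4 for the gene, TCONS_00347933 that of Chrm2, a muscarinic acetylcholine receptor, at 3.51 and 3.71 against 20.6 and 20.8, and TCONS_00218545 that of Reep2, a protein that shapes the endoplasmic reticulum, at 2.92 and 2.52 against 72.1 and 79.0.

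Base composition differed with length within the long lncRNAs. Median GC content was 45.7% (45.1 to 46.2), below the 47.8% of mid-length and the 48.5% of short lncRNAs. Among the 279 members under 1500 nt it was 47.2% (46.3 to 48.0), and it was lower in each longer group up to the 18 members of 10000 nt or more, with 39.9% (39.5 to 43.5). The extremes were TCONS_00085519 at 66.2%, TCONS_00367594 at 65.0% and TCONS_00161617 at 60.3%, and TCONS_00260460 at 30.8%, TCONS_00536320 at 31.1% and TCONS_00419181 at 31.7%. Over the 701 members Spearman's rho between length and GC content was -0.289.

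Lower-case letters in the deposited sequences mark repeats, and they made up a median of 23.4% of a long lncRNA (21.3 to 25.2), against 18.4% and 13.0% in the shorter classes. There were 35 members with no lower-case base and 104 with more than 50%. TCONS_00496013 was 97.5% lower case, TCONS_00227357 94.4% and TCONS_00235013 93.0%. The share did not follow length within the long lncRNAs (rho 0.00872), nor level (rho -0.00622), and members with under 10% lower case had a median of 0.948 FPKM before puberty and 1.01 at puberty, against 0.893 and 1.04 for those with 50% or more.

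Reading frames were short. Over the 3 frames of the printed strand, the longest run from ATG to stop had a median of 225 nt (216 to 231) and a range of 69 to 678 nt, and covered a median of 11.5% of the transcript. The median was 201 nt for members under 1500 nt and 318 nt for those of 10000 nt or more. The study removed transcripts that its tools called coding, so the upper end is partly set by that filter. A frame of 300 nt or more was present in 139 members (19.8%). The longest were in TCONS_00359715 of XLOC_319660 (678 nt, 3.04 and 2.09 FPKM), in TCONS_00449701 and TCONS_00449702 of XLOC_399213 (564 nt each) and in TCONS_00359716 of XLOC_319660 (540 nt).

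**Figure D5:**
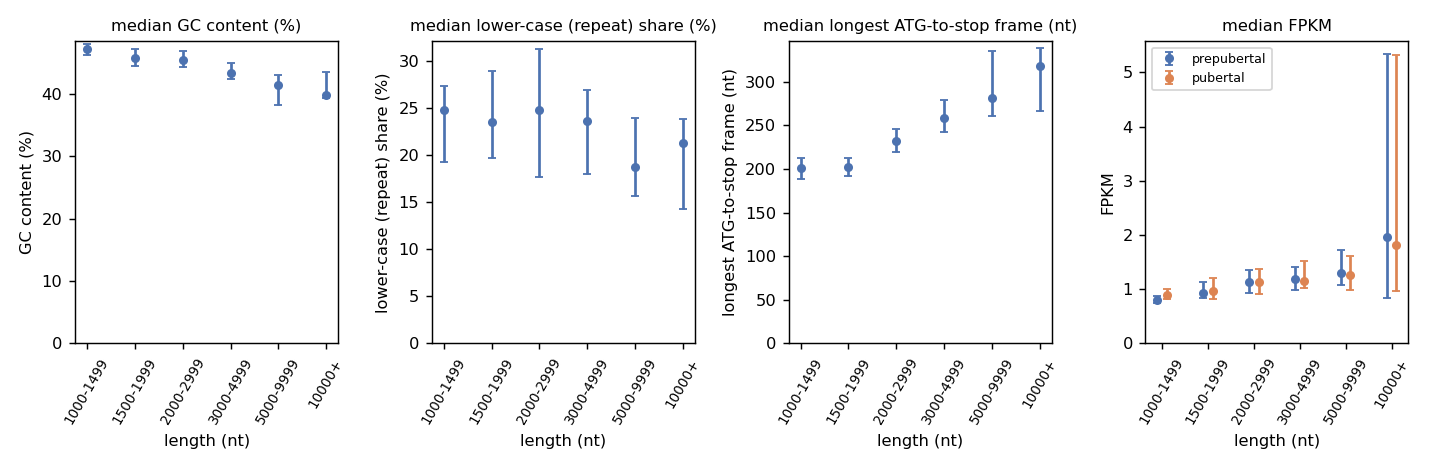
Median GC content, lower-case (repeat) share, longest ATG-to-stop frame and FPKM of the long lncRNAs in 6 groups of length, with 95% order-statistic intervals. From the shortest to the longest group, GC content goes from 47.2% to 39.9% and the frame from 201 to 318 nt.

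Longer members stood at higher levels. Median FPKM was 0.799 before puberty and 0.899 at puberty under 1500 nt, and 1.97 and 1.81 at 10000 nt or more, with wide intervals for the 18 longest. The rank correlation of length with the mean log level was 0.269, whereas that of length with the log2 ratio was -0.0154. On the FPKM + 1 scale no member of 3000 nt or more differed by 2-fold, and no member of 5000 nt or more was at 0 in a library.

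The 18 members of 10000 nt or more came from 13 loci. TCONS_00424089 of XLOC_376345, with 23179 nt, stood at 12.6 FPKM before puberty and 14.4 at puberty, and TCONS_00438586 of the same locus, with 22560 nt, at 12.9 and 7.88, while all 6 assembled transcripts of the locus summed to 76.7 and 77.2 FPKM. TCONS_00422228 (XLOC_374641, 22407 nt) was the only transcript of its locus and had 1.62 and 1.51 FPKM, or 743 and 544 fragments. TCONS_00438588 (XLOC_376351, 18396 nt) was at 6.54 and 7.21 FPKM. TCONS_00424089 matched itself at a shift of 2680 nt in 25% of its 16-letter words, TCONS_00438586 in 25.6%, and the other 6 of the 8 longest members in at most 1.2%, so of the loci of these 8 only XLOC_376345 repeated itself over a large part of its length. Only 2.62% of TCONS_00424089 was in lower case. A pair of its copies is printed over 60 nt, from base 14281 and from base 16961, with the base that differs in capitals.
TCONS_00424089, base 14281 on: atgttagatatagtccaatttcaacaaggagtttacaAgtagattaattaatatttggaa
TCONS_00424089, base 16961 on: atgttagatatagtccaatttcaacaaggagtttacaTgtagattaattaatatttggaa

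These windows were chosen for their likeness and agree at 59 of 60 bases.

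The ends of the assembled transcripts were searched for the polyadenylation hexamer AATAAA, which in mRNAs lies shortly before the cleavage site. It stood in the last 50 nt of 90 long lncRNAs (12.8%, 10.6 to 15.5) and in the first 50 nt of 13 (1.85%, 1.09 to 3.15). The reverse complement TTTATT stood in the last 50 nt of 29 (4.14%, 2.90 to 5.88). The last 50 nt held AATAAA in 11.1% of the mid-length and in 4.60% of the short lncRNAs. Members with the hexamer had medians of 0.996 FPKM before puberty and 1.04 at puberty, and members without it 0.949 and 1.02. Ribosomal RNA was removed and no poly(A) selection is described, and no match in this window says only that these letters are not there. Among the most abundant members and those with the largest differences, 5 had AATAAA in the last 50 nt, which are printed with the hexamer in capitals.
TCONS_00059789: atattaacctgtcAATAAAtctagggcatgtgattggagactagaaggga
TCONS_00057748: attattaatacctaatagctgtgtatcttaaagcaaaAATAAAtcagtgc
TCONS_00540272: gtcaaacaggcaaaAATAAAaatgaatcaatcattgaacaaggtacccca
TCONS_00297497: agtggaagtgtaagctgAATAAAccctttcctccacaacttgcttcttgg
TCONS_00359716: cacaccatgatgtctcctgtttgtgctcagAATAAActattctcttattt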

How the data were processed

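Hypothalamic RNA of prepubertal and pubertal rats was depleted of ribosomal RNA and made into strand-specific paired-end libraries. The authors aligned reads with TopHat, assembled transcripts with Cufflinks 2.1.1 and Scripture, removed those that CNCI, CPC or Pfam-scan called coding, and computed FPKM with Cuffdiff 2.1.1. The deposited FPKM values hold 1 column per stage, and how the 3 hypothalami of a stage were combined is not given in the sources used here. The submitters' processing notes name the build Rnor_5.0, and the study's methods an annotation of Rnor_6.0. No genome of either build was used here, so the long lncRNAs were not placed in the genome. The comparison table also holds the authors' log2 fold changes, p-values and q-values, which were not used. Its length column chose the members, and its FPKM were equal to those of the lncRNA list for every member. No column of another sample was present (0 unused).

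The members and lists were chosen with earlier results of these data known. A pseudocount of 1 FPKM was added before ratios, and no filter on low values was applied beyond the floor of the lncRNA list itself. Shares have Wilson and medians order-statistic 95% intervals, and fragments exact Poisson intervals. Fragments were obtained from FPKM by a search for the unit and mean fragment length that make values of single-transcript genes whole. The fragment and reading frame steps were tested on simulated data. Sequences were matched with BLAST 2.17.0 (promoters) or by exact search (hairpins). Promoter windows that matched more than 3 loci, transcripts that matched more than 4 genes, and matches with 50% or more lower case were left out. The members named were those of the study's loci, the 10 highest in each library, the 10 largest differences each way, the 5 highest at 0 in the other library, the 5 longest, the extremes of GC content, repeat share and reading frame, and the loci with the most members. Other transcripts, among them the hosts of hairpins, the neighbours of genes, XLOC_031006 and the single-transcript members with counting intervals apart, were chosen after their values were seen. Analyses used Python 3.11.15, pandas 2.3.3 and scipy 1.17.1.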

Additional observations from a re-analysis of the deposited data

How the results depend on the processing

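Of 64 alternative values, 32 stayed within the interval of the main value, or within 1.5 times a main count, and 32 moved. No paired analysis was possible because each stage has 1 library, and leaving out a replicate was impossible for the same reason. With a pseudocount of 0.1 FPKM, 90 members were 2-fold higher and 91 lower, in place of 22 and 9. Restricted to members above 0 FPKM at both stages, 12 were higher and 5 lower, in loci summed over members 10 and 2, and among members that are the only listed transcript of their locus 6 and 1. At 1500 nt or more the counts were 7 and 4, and at 2000 nt or more 5 and 2. The median log2 ratio was 0.0402 for members at 1 FPKM or more in 1 library, the opposite sign of the main -0.04. That limit keeps members through their higher library, with 330 reaching it before puberty and 363 at puberty, and can itself move the median. The ratio was -0.00713 after scaling the pubertal library to an equal median. That scaling put 48.8% of members higher at puberty, and 2000 nt or more 40.1%. The share above 0 in both libraries was 96.9% at 1500 nt or more, 97.1% at 2000 nt or more, 96.9% for the longest member of each locus, and 92.9% when 0.1 FPKM was required. Median FPKM was 1.12 and 1.13 at 1500 nt or more and 1.22 and 1.21 at 2000 nt or more, median GC content 44.4% and 43.6%, and the median reading frame 237 and 255 nt. The frame was 309 nt from stop to stop and 270 nt over 6 frames. AATAAA or ATTAAA stood in the last 50 nt of 16.5%, and AATAAA in the last 100 nt of 15.7%. The cause of these shifts was not tested, except that fewer members enter where a length or level is required.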
